A study of Mus musculus with 6 samples.

Results

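Nppa and Nppb encode the precursors of the cardiac hormones atrial natriuretic peptide (ANP) and B-type natriuretic peptide (BNP). Both genes were found by symbol in the deposited gene lists, as 2 of 27998 genes, and both had unique molecular identifier (UMI) counts in every library. The data are droplet-based single-cell RNA-seq (scRNA-seq) of sorted cardiomyocytes (CMs) from the left ventricle of C57BL/6J mice. CMs were fixed with methanol, stained for the muscle myosin MYH1 and sorted by Hoechst signal into diploid (2n) and tetraploid (4n) fractions at embryonic day 16.5 (E16.5), postnatal day 1 (P1) and postnatal day 5 (P5), which gave 6 libraries, named here by age and fraction, such as E16.5-2n or P5-4n. The mice carried no transgene or treatment that the labels name. The title of the E16.5-4n library gives E16.5, while its source name and age label give day 16.6. A DNA content of 4n is shared by binucleated or polyploid CMs and by diploid CMs that have copied their DNA and not yet divided, and these cannot be told apart by the sort. For each age the methods give 3 sorts, each of 1 litter, whose cells were pooled, so that the 2n and 4n libraries of an age share their litters. With 1 library in a group, single libraries were compared without a test. The intervals given here are exact 95% intervals that cover counting error only. Where 3 values follow each other for 2n or for 4n CMs, they run by age from E16.5 through P1 to P5.

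ANP and BNP are secreted by CMs, lower blood pressure and volume through the receptor guanylyl cyclase NPR1, and are cleared by the receptor NPR3. In the embryo both genes are active in the ventricle, Nppa above all in the trabecular layer that later gives rise to the ventricular conduction system. After birth the ventricular expression of Nppa fades, and stretch, pressure load or injury can bring both genes back, together with other genes of the so-called fetal program.

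Both genes lie on mouse chromosome 4 and are read from the same strand. Nppb (ENSMUSG00000029019) spans chr4:147985788-147987205 and Nppa (ENSMUSG00000041616) spans chr4:148000722-148002079 on the plus strand of GRCm38 in the GENCODE annotation, with 13516 bases between them. As both members were counted in the same cells, the sequences before their starts are printed below from RefSeq promoter records of GRCm38.p6, 5′ to 3′, with matches to short motifs in capitals. The motifs were GATAA for GATA factors, AAGTG for NKX2-5, GGAATG for TEAD factors and GGTGT for T-box factors on either strand, TATAAA on the plus strand, and the CArG box of SRF by its name. For Nppa, the 250 bases before the start at chr4:148000472-148000721 are shown.
Nppa upstream: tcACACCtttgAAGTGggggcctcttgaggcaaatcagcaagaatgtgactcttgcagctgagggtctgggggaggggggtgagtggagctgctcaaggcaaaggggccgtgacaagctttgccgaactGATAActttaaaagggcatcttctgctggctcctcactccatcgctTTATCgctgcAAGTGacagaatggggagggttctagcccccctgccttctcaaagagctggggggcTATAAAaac
For Nppb, RefSeq places the start 112 bases after that of GENCODE, so only the 138 bases before both starts, chr4:147985650-147985787, and a 27-base window of matches at chr4:147985795-147985821 are shown.
Nppb upstream: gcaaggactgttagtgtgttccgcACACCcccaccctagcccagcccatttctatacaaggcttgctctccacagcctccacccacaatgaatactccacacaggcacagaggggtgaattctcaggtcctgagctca
Nppb window: GGAATGcagctGATAAatcagaGATAA
Motifs were counted in the 250 bases before the RefSeq start of each gene, which for Nppb reach past the printed stretches into the transcript as GENCODE draws it. Both 250-base sequences held 2 matches to GATAA, those of Nppb in the printed window, and 4.28% of 32851 RefSeq promoters of the same length held at least 2 while 22.6% held at least 1. TATAAA matched in both, for Nppb at chr4:147985869-147985874 outside the printed stretches, and in 7.59% of promoters, and a T-box match stood in both and in 36.2%. The Nppa sequence had 2 matches to AAGTG, a motif of 40.7% of promoters, and none to GGAATG. In the Nppb sequence GGAATG matched 1 time, as in 12.6% of promoters, and AAGTG did not match. No match overlapped another, and neither sequence held an exact CArG box, which 1.47% of promoters did. Stretches with a mismatch to the CArG box were not searched, so elements like it may stand in these sequences. These matches describe the letters in these windows and no binding was measured.

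The files held 31156 cells, with between 3678 and 7469 in a library. The study states the same number of cells. A cell was taken as a CM where it held at least 1 UMI of each of the troponin genes Tnni3, Tnnt2 and Tnnc1 and of the cardiac actin gene Actc1, which 30733 cells did, while 24 to 129 cells per library did not. The CMs of a library had a median depth of 1831 UMIs (P1-2n) to 4658 UMIs (P5-4n), and levels are given as CPM, the UMIs of a gene per 1000000 UMIs summed over all CMs of a library. Because depth differed, statements on single cells use CMs thinned to 1000 UMIs each, which left out 0 to 700 CMs per library. CMs with at least 3 of 1000 UMIs of a marker list of another cell type (fibroblast, endothelial, endocardial, macrophage, mural, epicardial or Schwann) were 1.07%, 1.33% and 2.55% of the 2n and 11.6%, 13.5% and 4.71% of the 4n libraries. Barcodes found in 2 or more libraries numbered 499 of 30652 distinct ones, with 17 to 62 for a pair of libraries, and leaving out those CMs kept each log2 ratio of both genes within its interval.

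Nppa was lower at P5 than at the earlier ages in both ploidies, and Nppb was lower at P1 than at E16.5 and higher again at P5. By age, Nppa was at 2071, 1959 and 973 CPM among 2n and at 1920, 1478 and 642 CPM among 4n CMs. Both P5 libraries were thus below all others. In the order of Nppa levels, E16.5-4n with an interval of 1896 to 1943 CPM and P1-2n with 1938 to 1980 CPM were the only neighbours whose intervals met. These intervals take UMIs as independent, although Nppa varied far more between CMs than counting gives. They are too narrow for Nppa and do not show the order of E16.5-2n, P1-2n and E16.5-4n. Nppb was at 493, 209 and 430 CPM among 2n and at 296, 215 and 393 CPM among 4n CMs. The 2 P1 libraries were lowest and their intervals, 202 to 216 CPM and 208 to 221 CPM, overlapped. The UMIs behind these levels numbered 11808 to 32213 for Nppa and 3432 to 7713 for Nppb in a library.

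**Figure D1:**
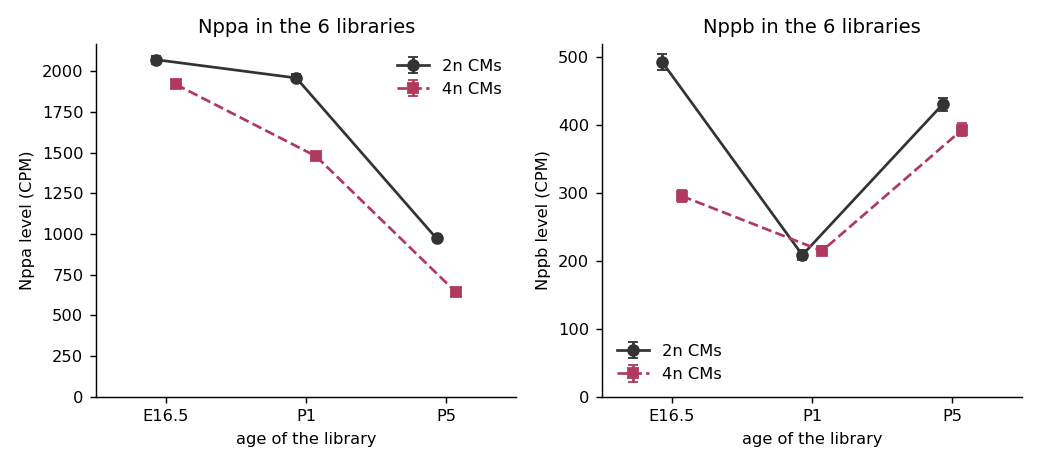
Levels of Nppa (left) and Nppb (right) in CPM by age, with 2n CMs as circles on solid lines and 4n CMs as squares on dashed lines; each point is 1 library and bars are 95% counting intervals. Nppa ended at 973 and 642 CPM at P5, while Nppb was lowest at P1, at 209 and 215 CPM.

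From E16.5 to P1, Nppb was 2.36-fold lower in 2n CMs, a log2 ratio of -1.24 (-1.30 to -1.18). Of 9391 genes with at least 100 UMIs in that pair of libraries, 12.1% were lower by at least 2-fold and 1.98% were higher, and the median log2 ratio of all of them was -0.34. In 4n CMs the log2 ratio of Nppb was -0.46 (-0.52 to -0.40) at a median of -0.30 over all genes, where 11.6% were lower by at least 2-fold and 2.88% were higher. Nppa was nearly level over birth in 2n CMs, with a log2 ratio of -0.08 (-0.10 to -0.06), and had -0.38 (-0.40 to -0.35) in 4n CMs. Relative to the median gene, Nppa therefore stood 0.25 above in 2n CMs, and scaling by the median of ratios gave 0.22 in place of -0.08.

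From P1 to P5 the 2 genes parted. Nppa was 2.01-fold lower at P5 in 2n CMs, a log2 ratio of -1.01 (-1.04 to -0.98), against 1.98% of 9230 genes lower by at least 2-fold. In 4n CMs Nppa was 2.30-fold lower, a log2 ratio of -1.20 (-1.23 to -1.17), against 5.85% of 9764 genes. Nppb was 2.06-fold higher at P5 in 2n CMs, a log2 ratio of 1.04 (0.99 to 1.10), where 3.02% of genes were higher by at least 2-fold. In 4n CMs it was 1.83-fold higher, a log2 ratio of 0.87 (0.82 to 0.93), short of the 2-fold mark that 2.4% of genes passed. The median log2 ratios of all genes were -0.09 in 2n and -0.16 in 4n CMs over this step. The ratio of Nppa to Nppb UMIs, which counts 3′ ends and so does not scale with transcript length, was 4.20, 9.39 and 2.26 among 2n and 6.49, 6.88 and 1.63 among 4n CMs, so that Nppa was the more abundant in each library and least so on P5.

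Between the ploidies, the difference that stood furthest from other genes was that of Nppb at E16.5. E16.5-4n CMs had 1.67-fold less Nppb than E16.5-2n CMs, a log2 ratio of -0.74 (-0.79 to -0.68), which ranked as number 31 from the lowest of 9625 genes, of which 0.0208% were lower by at least 2-fold. At P1 the log2 ratio of Nppb, 4n over 2n, was 0.04 (-0.02 to 0.11) and at P5 it was -0.13 (-0.18 to -0.08). For Nppa the log2 ratios of CPM were -0.11, -0.41 and -0.60 by age, the last a 1.52-fold lower level in 4n CMs. The E16.5 value depended on the processing. It was -0.03 without CMs with markers of other cell types, but -0.15 under scaling by the median of ratios and -0.18 without the deepest 5% of CMs. The share of CMs with at least 5 Nppa UMIs of 1000 had a log2 ratio of -0.14 (-0.33 to 0.05) at that age. A lower Nppa level in 4n CMs was therefore not clearly shown at E16.5. Over the 3 pairs of libraries, one per age, the mean log2 ratio of Nppa was -0.37 ± 0.25 (SD, n = 3), with p = 0.25 in an exact two-sided sign-flip permutation test, the smallest p that 3 pairs can give, and that of Nppb was -0.28 ± 0.41 (p = 0.50 in the same exact test). As the 3 pairs are different ages and not replicates, the SD holds the change with age. Neither the SD nor the p-value measures a spread between animals or libraries. The Nppa values at P1 and P5 ranked as number 127 of 9653 and number 159 of 9349 from the lowest, where 0% and 0.406% of genes were lower by at least 2-fold. Among CMs of at least 1000 UMIs, leaving out those with mitosis UMIs among 1000 drawn ones gave 0.06 for Nppa at E16.5 in place of -0.11. The 4n fractions also held more UMIs of a list of 22 mitosis genes, 4736, 761 and 2581 CPM by age against 1086, 209 and 483 CPM in the 2n fractions.

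The mitosis list holds genes of cell division such as Ccnb1, Cdk1, Top2a and Cenpf. CMs with at least 3 of 1000 UMIs of this list had less Nppb than CMs without any in each library. The mean Nppb count of 1000 UMIs was 0.563, 0.181 and 0.425 in 2n CMs without mitosis UMIs and 0.202, 0.112 and 0.268 in 2n CMs with at least 3. In 4n CMs it was 0.436, 0.200 and 0.405 without and 0.189, 0.0935 and 0.275 with them. The intervals of both classes were apart in all libraries but P1-2n, where only 107 CMs had at least 3 mitosis UMIs. For Nppa the means of 2n CMs were 2.10, 1.68 and 0.937 without and 1.21, 1.19 and 0.234 with mitosis UMIs, with no overlap of intervals. In 4n CMs they were 2.15, 1.36 and 0.760 without and 1.40, 1.41 and 0.371 with them, so that P1-4n was the exception, with overlapping intervals. All these intervals take UMIs as independent, although Nppa in particular varied more between CMs. Counted as CMs with at least 5 Nppa UMIs of 1000, P1-2n also had overlapping intervals. The shares there were 9.36% (8.63 to 10.1%) without and 7.48% (3.28 to 14.2%) with mitosis UMIs. CMs with mitosis UMIs were not shallower, with median depths of 2318 to 4722 UMIs against 1941 to 4609.

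**Figure D2:**
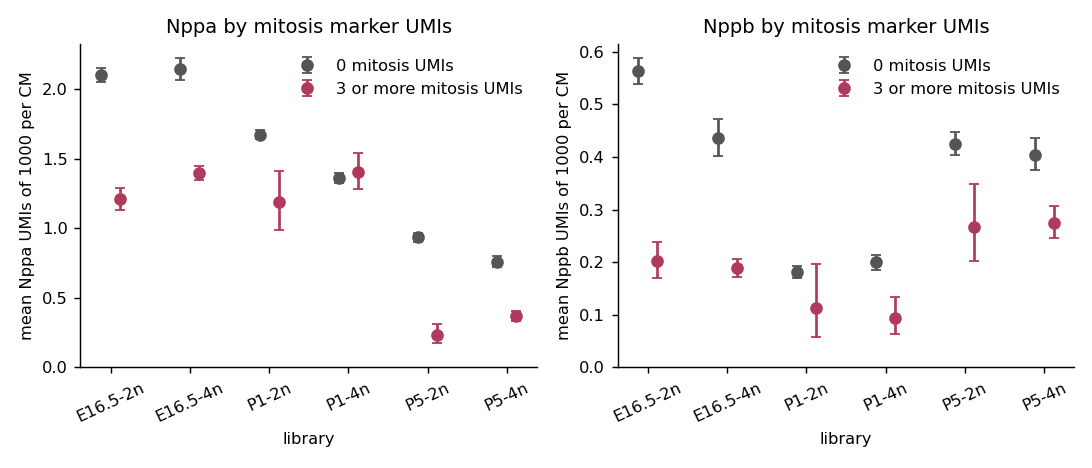
Mean Nppa (left) and Nppb (right) UMIs of 1000 per CM in each library, for CMs without UMIs of the mitosis list (grey) and with at least 3 (red); bars are 95% counting intervals. Nppb was lower in red than in grey throughout, from 0.563 to 0.202 in E16.5-2n, while Nppa in P1-4n was at 1.36 and 1.41.

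The ploidy difference was therefore also read among CMs without mitosis UMIs, which were 62.9% of the 2n and 29.1% of the 4n CMs at E16.5. There the log2 ratio of Nppb, E16.5-4n over E16.5-2n, was -0.37 (-0.50 to -0.24), against -0.70 over all CMs thinned to the same depth. In CMs with at least 3 mitosis UMIs it was -0.10 (-0.37 to 0.18), an interval that held 0. The Nppa log2 ratio at E16.5 was 0.03 (-0.03 to 0.09) among CMs without mitosis UMIs. At P5, where such CMs were 78.4% of P5-2n and 47.9% of P5-4n, Nppa kept a log2 ratio of -0.30 (-0.39 to -0.21) among them, against -0.56 over all thinned CMs, and Nppb had -0.07 (-0.20 to 0.06). At P1 the corresponding value of Nppa was -0.30 (-0.35 to -0.25). CMs with at least 5 Nppa UMIs of 1000 were also counted among CMs without mitosis UMIs. At P5 they were 5.52% (4.78 to 6.33%) of 2n and 4.39% (3.48 to 5.46%) of 4n CMs, with overlapping intervals. At P1 the intervals were apart, at 9.36% (8.63 to 10.1%) and 7.39% (6.57 to 8.27%). CMs with markers of other cell types were not spread evenly over these classes. At E16.5 they were 17.0% of 4n and 0.89% of 2n CMs without mitosis UMIs. The shares were 13.1% and 1.17% at P1, then 4.68% and 1.97% at P5. After thinning, such CMs of E16.5-4n had 854 CPM of Nppa and 222 CPM of Nppb, against 1833 and 303 CPM in its other CMs. For E16.5-2n their Nppa was higher, at 2542 against 1871 CPM, but on 150 UMIs in 59 CMs. Of these CMs 5 held at least 5 Nppa UMIs of 1000, or 8.47%, against 9.41% of all E16.5-2n CMs. Their Nppb was lower, at 254 against 479 CPM. The part of such CMs in the ratios was not tested. Among CMs with at least 3 mitosis UMIs the log2 ratio of Nppa, 4n over 2n, had the other sign, at 0.21 (0.10 to 0.32) at E16.5, 0.25 (-0.04 to 0.54) at P1 and 0.66 (0.23 to 1.12) at P5. These intervals take UMIs as independent, and the P5 value rested on 49 Nppa UMIs in 209 P5-2n CMs. Of these CMs 3 held at least 5 Nppa UMIs of 1000, or 1.44% (0.30 to 4.14%), against 1.93% (1.21 to 2.91%) in P5-4n. The intervals of such shares in CMs with at least 3 mitosis UMIs overlapped between the ploidies at each age. A difference was thus not shown by them.

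Nppa was spread very unevenly between CMs. Its median was 0 of 1000 UMIs in each library, whereas the highest CM of a library held 67 to 106. The 10% of CMs with the most Nppa held 84.9%, 79.95% and 89.2% of its UMIs in the 2n and 84.5%, 77.9% and 89.8% in the 4n libraries. The variance-to-mean ratio, which would be near 1 for pure counting, was 23.1, 15.95 and 14.7 among 2n and 21.6, 13.4 and 14.7 among 4n CMs. Among the 1070 to 1379 genes with a mean of at least 0.1 of 1000 UMIs this ranked Nppa between number 2 and number 5 of the library. The genes ahead of it were globin genes and, at P5 in 2n CMs, the atrial light chain gene Myl7. Nppb had lower variance-to-mean ratios, a measure that rises with the mean, of 2.30, 2.16 and 2.53 among 2n and 1.96, 2.32 and 2.03 among 4n CMs, at ranks 16 to 29, against a median of 1.02 to 1.03 for all genes, and no CM held more than 15 of 1000 UMIs. The 10% of CMs with the most Nppb held 63.7%, 89.9% and 68.3% of its UMIs in the 2n and 67.5%, 87.6% and 66.0% in the 4n libraries, less than for Nppa at E16.5 and P5 and more at P1. At P1 only 11.8% of 2n and 12.4% of 4n CMs held an Nppb UMI of 1000. The top 10% there took in most of these CMs, so its share does not show a stronger concentration than that of Nppa.

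**Figure D3:**
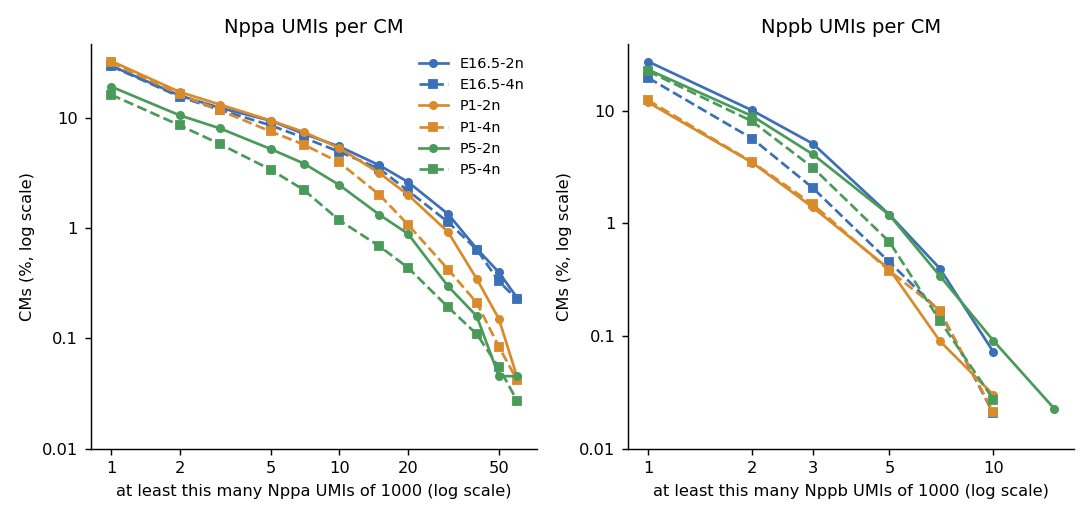
Percentage of CMs (log scale) with at least a given number of Nppa (left) or Nppb (right) UMIs of 1000 (log scale) in each library; colours mark age, solid lines with circles 2n and dashed lines with squares 4n CMs. The Nppa curves reach past 50 UMIs and the P5 curves run below the others up to 50, while the Nppb curves end at 15 UMIs or fewer and those of P1 start lowest, at 11.8% and 12.4%.

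At least 1 Nppa UMI of 1000 was found in 29.6%, 32.7% and 19.2% of 2n CMs and in 29.4%, 31.9% and 16.2% of 4n CMs. In the few cells that failed the CM filter, with median depths of 911 to 1440 UMIs, the shares were 28.9%, 37.2% and 18.4% in the 2n and 28.7%, 30% and 25% in the 4n libraries. The shares in CMs were within the intervals of these shares, which were wide, for example 9.77% to 46.7% in P5-4n. The failing cells were not free of CM transcripts either, with 346 Tnnt2 UMIs in 83 cells of E16.5-2n. Whether a single Nppa UMI is background cannot be told from these cells, and it is not read here as expression. For Nppb the shares were 27.3%, 11.8% and 23.1% of 2n CMs and 19.6%, 12.4% and 22.4% of 4n CMs. In cells that failed the filter, Nppb shares were 7.23%, 5.43% and 4.08% in the 2n and 10.2%, 3.33% and 20.8% in the 4n libraries, below those in CMs by value in each. The intervals held the share of CMs in P1-4n, with 1 of 30 such cells (0.084% to 17.2%), and in P5-4n, with 5 of 24 (7.13% to 42.2%). Unthinned, the share of CMs with a UMI ran from 34.0% to 53.7% for Nppa and from 19.3% to 47.0% for Nppb, with the deeper libraries raised most.

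CMs with at least 5 Nppa UMIs of 1000 are called Nppa-high here, and CMs with at least 2 Nppb UMIs of 1000 Nppb-high, both limits having been set after the distributions were seen. Nppa-high CMs were 9.41% (8.65 to 10.2%), 9.44% (8.75 to 10.2%) and 5.21% (4.57 to 5.91%) of 2n CMs. In the 4n libraries they were 8.54% (7.77 to 9.37%), 7.52% (6.79 to 8.31%) and 3.39% (2.83 to 4.03%). They held 64.5% to 83.6% of all Nppa UMIs. Of the cells that failed the CM filter, which were not thinned, at most 3.70% held at least 5 Nppa UMIs and at least 5 per 1000 of their UMIs. These cells were few, and the intervals of their shares held the share of CMs in each library but P1-2n (0.48 to 6.65%). A difference from background was therefore not shown in the other libraries. From P1 to P5 this share was lower by 1.81-fold in 2n and by 2.22-fold in 4n CMs, whereas the mean within Nppa-high CMs went from 14.2 to 12.7 and from 12.7 to 11.5 of 1000 UMIs, which the limit of 5 bounds from below. In the other CMs the mean was lower at P5 too, by log2 ratios of -0.72 in 2n and -0.92 in 4n CMs. Nppb-high CMs were 10.1%, 3.46% and 8.97% of 2n CMs and 5.66%, 3.50% and 8.05% of 4n CMs. Their share was 2.59-fold higher at P5 than at P1 in 2n and 2.30-fold higher in 4n CMs. The mean within the class, which the limit of 2 bounds from below, was 2.74 to 3.03 of 1000 UMIs in each library. In the other CMs the mean of Nppb was higher at P5 too, by log2 ratios of 0.84 in 2n and 0.76 in 4n CMs. At E16.5, 4n CMs had a 1.78-fold lower share of Nppb-high CMs than 2n CMs, and in the other CMs the log2 ratio of the mean was -0.38.

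Nppb-high CMs were more frequent among Nppa-high CMs than among the other CMs. Of Nppa-high CMs, 29.6%, 12.0% and 28.8% were also Nppb-high in the 2n libraries, against 8.04%, 2.58% and 7.88% of the other CMs. In the 4n libraries it was 20.7%, 12.0% and 21.8%, against 4.25%, 2.80% and 7.56%, and the intervals of the 2 shares were apart in each library. CMs high for both were 2.71-fold to 3.66-fold as frequent as the product of the single shares. Spearman's rho between the 2 genes over the CMs of a library was 0.21, 0.15 and 0.16 in the 2n and 0.18, 0.15 and 0.15 in the 4n libraries, over 3654 to 6640 CMs each, where all CMs share a library and a drawn depth. The share with an Nppb UMI went from 22.1% of CMs without Nppa to 57.2% of those with at least 20 Nppa UMIs in E16.5-2n, and from 15.9% to 57.5% in E16.5-4n. At P1 it went from 9.09% to 37.6% in 2n and from 9.64% to 31.4% in 4n CMs. At P5 it went from 20.2% to 61.5% in 2n and from 19.9% to 56.2% in 4n CMs, the latter over 16 CMs. Nppa-high CMs had a higher median depth before thinning than CMs without Nppa in each library, for example 2600 against 2204 UMIs in E16.5-2n and 5355 against 4618 in P5-4n, and the part of this in the relation was not tested beyond the drawn depth.

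**Figure D4:**
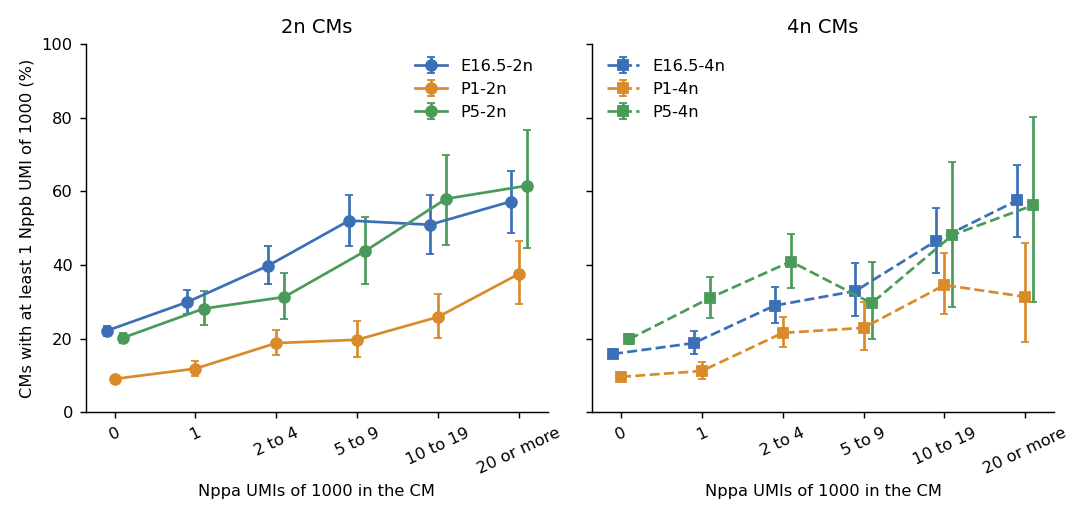
Percentage of CMs with at least 1 Nppb UMI of 1000 by the number of Nppa UMIs of 1000 in the CM, for 2n (left, circles) and 4n CMs (right, squares), coloured by age; bars are exact 95% binomial intervals. In each library the share was higher in the CMs with the most Nppa than in those without, from 22.1% to 57.2% in E16.5-2n.

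Of 913 genes with a mean of at least 0.1 of 1000 UMIs in each library, Nppb was the gene most like Nppa, with a Spearman rho of 0.17 averaged over the 6 libraries. The next were Ankrd1, a stretch-responsive ankyrin repeat protein of the sarcomere and nucleus (0.12), the myosin light chain Myl9 (0.09), Actc1 (0.06), tropomyosin Tpm1 (0.06), the small muscle protein Smpx (0.06), the matrix protein Sparc (0.05) and the ribosomal protein Rpl38 (0.05). Lowest were myoglobin Mb (-0.06), the calcium pump Atp2a2 (-0.06), the ATP synthase subunit Atp5b (-0.06) and the pump regulator Pln (-0.05). Some of these averages did not hold in each library. Sparc ran from 0.19 in E16.5-2n to -0.0055 in P5-2n, Tpm1 from 0.11 in E16.5-4n to -0.038 in P5-2n. Mb ran from -0.13 in E16.5-2n to 0.015 in P5-4n. Smpx in P5-4n and Pln in E16.5-4n also had the other sign, and the other named genes kept theirs. For Nppb the most similar gene was Ankrd1, at 0.27 on average and 0.25 to 0.31 in single libraries. It was followed by Nppa (0.17), Actc1 (0.17), the Z-disc protein Csrp3 (0.08), Myl9 (0.07), Bex1 (0.07), the ventricular light chain Myl2 (0.06) and the chaperone Cryab (0.06). The histone genes H2afz (-0.07), H2afv (-0.05) and H3f3b (-0.05) and the chromatin protein gene Hmgb2 (-0.06) were lowest.

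To show in which CMs each peptide gene was high, UMIs were summed over Nppa-high CMs and over CMs without Nppa, and the ratio of CPM, without the UMIs of Nppa and Nppb, was read for lists of genes. A gene is counted as higher or lower where its interval lay off 0 in the same direction in at least 4 of the 6 libraries, which is a description of these libraries and no test. Over all 11068 genes with at least 100 UMIs, 1.36% were higher and 1.04% were lower in Nppa-high CMs, and the median log2 ratio of all genes lay between -0.07 and -0.0023 in a library. An interval leaves 0 more readily where UMIs are many, so these shares are not a like comparison for lists of abundant genes. In the trabecular and conduction list, 2 of 9 measured genes were higher and 0 were lower. The median of the mean log2 ratios of these genes was 0.88, the value of Slit3, on 18 UMIs in Nppa-high CMs. A library where a gene had no UMI in 1 of both classes was left out of its mean. Means of scarce genes, and this median, are therefore uncertain. Gja5, the connexin of the trabecular and conduction CMs, had 66.4 CPM in Nppa-high and 12.5 CPM in Nppa-zero CMs of E16.5-2n, and its log2 ratio was 2.41 and 1.68 in the 2n and 2.65 and 2.21 in the 4n libraries of the first 2 ages. At P5 the log2 ratios of Gja5 were 0.69 and 0.60 on 3 to 5 UMIs in Nppa-high CMs, with intervals that held 0. Irx5, a transcription factor of the same layer, had log2 ratios of 1.94 and 1.21 in those 2n and 2.40 and 0.98 in those 4n libraries.

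The transcription factor list had 21 measured members, of which 0 were higher and 2 were lower in Nppa-high CMs. Hey2, a repressor that marks the compact layer of the ventricular wall, was at 54.2 in Nppa-high against 102 CPM in Nppa-zero CMs of E16.5-2n, and its log2 ratios over the 6 libraries ran from -1.40 to -0.65. Tbx20 ran from -0.48 to -0.13. Of other factors known to act on the Nppa promoter, Gata4 had a mean log2 ratio of -0.07 and was lower in 1 library, Nkx2-5 had 0.08 and was higher in 2, and Tbx5 had 0.51 and was higher in 1. Hand1, a factor of the left ventricle, had the largest mean ratio of the list, 1.76, on 263 UMIs in all, and was higher in 3 libraries, 1 short of the count. Its UMIs over all CMs were few after birth, with 15 in P1-2n, 26 in P1-4n and 2 in each P5 library, so this mean ratio is uncertain. In the atrial list, of 7 measured genes, Myl4, Myl7 and Bmp10 were higher in 4 libraries and Sln was lower in 5. Myl7 was lower in the other 2, with log2 ratios of 0.49 to 0.64 at E16.5 and P1 and of -0.34 and -1.24 at P5. Bmp10, a growth factor of trabeculae and atria, had log2 ratios of 3.80 in 2n and 3.42 in 4n CMs at E16.5. Myl4, the light chain of atria and of the fetal ventricle, had 1.20, 1.98 and 0.03 among 2n and 1.36, 1.75 and 0.35 among 4n CMs. The summed level of the atrial list over all CMs, mostly Myl4 and Myl7, was 2924, 326 and 217 CPM in the 2n and 2330, 329.9 and 94.7 CPM for the 4n libraries, and the atrial gene Sln was at 2.61 to 24.5 CPM. Among CMs of at least 1000 UMIs without a UMI of Sln, Nr2f1, Nr2f2 or of the endocardial genes Npr3, Cytl1 and Plvap among 1000 drawn ones, each log2 ratio of Nppa and Nppb between libraries stayed within its interval. This kept most such CMs, for example 4653 of 4857 in E16.5-4n and 6607 of 6640 in P1-2n. It did not use Myl4 or Myl7 either, so it could hardly move a ratio.

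In the hypertrophy and stretch list, 7 of 15 genes were higher in Nppa-high CMs and 0 were lower by the count of at least 4 libraries. Of the 7, Fhl1 and Myh7 were each lower in 1 library. Of the rest, Cyr61 was lower in 3 libraries and Acta2 in 2. Many genes of this list are abundant, and small ratios were enough for a call. Csrp3, with 173588 UMIs, was called at a mean log2 ratio of 0.31, and Myl2, outside the list, at 0.10. Acta1, the skeletal actin that returns in loaded hearts, had log2 ratios of 0.45, 1.79 and 1.88 among 2n and 0.72, 1.35 and 1.82 among 4n CMs. Xirp2, an actin-binding protein of the intercalated disc, ran from 1.50 to 2.19, and Ankrd1 ran from 0.62 to 1.27. The fetal myosin gene Myh7 had -0.06 and 0.08 in the E16.5 libraries and 0.82 and 1.11 in those of P5, when its level over all CMs was 183 and 166 CPM. Of 22 mitosis genes 8 were lower in Nppa-high CMs and 0 were higher, and 4 of 6 fibroblast and 4 of 6 erythroid genes were lower too, the latter being globin genes.

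For Nppb-high against Nppb-zero CMs, 0.963% of 11215 genes were higher and 1.22% were lower, at median log2 ratios of all genes between -0.083 and -0.038. In the hypertrophy and stretch list 13 of 15 genes were higher and 0 were lower, where the abundance of its genes again limits the comparison with all genes. Fhl1, among the 13, was higher in 4 libraries and lower in 2, with log2 ratios from -0.58 to 0.97. Ankrd1 was at 4710 CPM in Nppb-high and 1829 CPM in Nppb-zero CMs of E16.5-2n, and its log2 ratios were 1.36, 2.75 and 1.35 among 2n and 1.53, 2.71 and 1.43 among 4n CMs. Tnfrsf12a, the receptor of the cytokine TWEAK, had 0.63, 2.06 and 1.20 among 2n and 0.76, 1.67 and 1.30 among 4n CMs. Ctgf, a secreted matrix protein and target of the YAP pathway, ran from 0.91 to 1.63, and Synpo2l of the Z-disc from 0.42 to 0.80. Xirp1 and Cyr61 were the 2 members that did not reach 4 libraries, with mean log2 ratios of 0.29 and 0.25. Of 9 measured trabecular and conduction genes and of 8 atrial genes, 0 were higher and 0 were lower, and Gja5 had log2 ratios of 0.52 in E16.5-2n and -2.01 in P5-2n. Hey2 was the only called factor of 21 and was lower, from -0.93 to -0.44. Of the mitosis list 16 of 22 genes were lower, among them Top2a, Cdk1 and Cenpf. The median of the mean log2 ratios of all 22 was -0.99. Whether a gene's ratio in Nppa-high and in Nppb-high CMs differed was not tested. Of the 4 genes that defined CMs, Tnni3 and Tnnt2 had log2 ratios between -0.16 and 0.15 in both comparisons, whereas Actc1 was higher in each library, by 0.18 to 0.36 in Nppa-high and 0.30 to 0.58 in Nppb-high CMs, and Tnnc1 was higher in 4 and in 6 libraries.

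**Figure D5:**
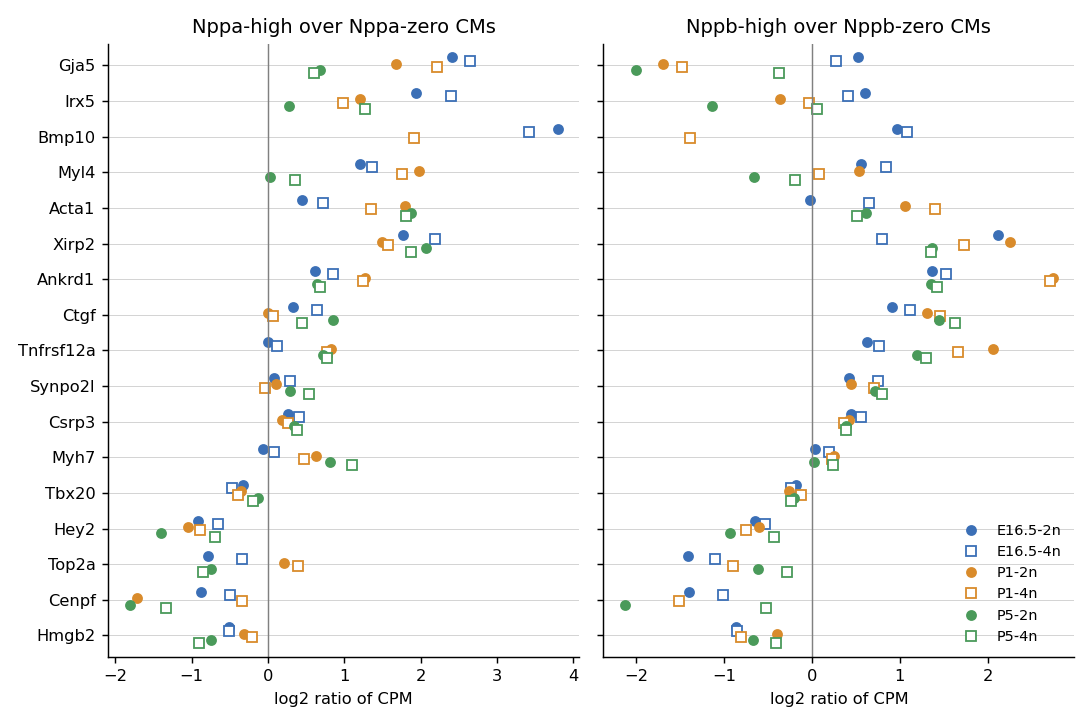
Log2 ratio of CPM in Nppa-high over Nppa-zero CMs (left) and in Nppb-high over Nppb-zero CMs (right) for genes chosen after their values were seen; each point is 1 library, coloured by age, filled circles for 2n and open squares for 4n, where at least 20 UMIs were counted in both classes together. Gja5, Irx5 and Bmp10 were higher in Nppa-high CMs at E16.5, Ankrd1 was higher in both panels in each library, and Hey2 was lower in both.

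The other genes of the peptide system were far less abundant in these CMs. Corin, the protease that activates ANP, was at 21.8 to 34.3 CPM and Furin, which cleaves the BNP precursor, at 10.9 to 20.3 CPM. The receptor gene Npr1 was at 3.15 to 5.03 CPM and Npr2 at 1.99 to 3.66 CPM. Npr3, a marker of endocardial cells, was at 13.8 and 7.22 CPM in 4n CMs of E16.5 and P1, the libraries with the most CMs that held markers of other cell types, and at 0.948 to 3.08 CPM in the others. Nppc, which encodes the third peptide of the family, had 1 to 4 UMIs in a library. Of the 10 measured members, 0 were higher and 0 lower in Nppa-high or in Nppb-high CMs by the count of at least 4 libraries.

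Between the ages, the hypertrophy and stretch list had 7 of 15 genes lower by at least 2-fold and 1 higher from E16.5-2n to P1-2n, a step over which 12.1% of all genes were lower and 1.98% higher. From P1-2n to P5-2n, 4 were higher and 1 was lower, against 3.02% and 1.98% of all genes. Ankrd1, like Nppb, was lowest at P1, with 2298, 849 and 1887 CPM in the 2n and 1754, 693 and 1765 CPM for the 4n libraries. Ctgf was at 57.2, 20.9 and 54.6 CPM and Tnfrsf12a at 239, 103 and 198 CPM in 2n CMs. In 4n CMs 4 of 14 measured genes of the list were lower at P1 than at E16.5 and 1 was higher, against 11.6% and 2.88% of all genes, and 4 of 15 were higher at P5 than at P1, with 1 lower, against 2.4% and 5.85%. Not all members had this course, since Myh7 went from 3765 to 955 and 183 CPM and Xirp2 went from 3.08 to 8.15 and 44.2 CPM in 2n CMs. The trabecular gene Gja5 was at 20.7, 4.93 and 3.51 CPM in 2n CMs. Of the transcription factors, Hey2 was at 92.2, 57.6 and 22.1 CPM and Gata4 was at 42.9, 30.4 and 36.1 CPM.

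The genes next to Nppa and Nppb on chromosome 4 did not have 1 course in common. Mfn2, a mitochondrial fusion protein, was at 93.5, 138 and 169 CPM in the 2n libraries and at 78.7, 132 and 176 CPM in the 4n libraries. Plod1 was at 13.8 to 17.7 CPM. Clcn6 was lower at P5 than at E16.5, with 6.91, 4.38 and 4.13 CPM in the 2n libraries. Its log2 ratios there were -0.66 from E16.5 to P1 and -0.08 from P1 to P5, against -0.08 and -1.01 for Nppa. From E16.5 to P5 it had -0.74 in 2n CMs, at a median of -0.45 over all genes. In the 4n libraries it was at 6.04, 4.37 and 3.70 CPM, on 68 to 101 UMIs in each of the 6 libraries. The antisense gene Gm13054 overlaps the end of Nppa on the other strand and had 7 to 19 UMIs in a library, against at least 11808 for Nppa.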

How the data were processed

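Methanol-fixed, sorted left-ventricular CMs of 3 sorts per sample were pooled, libraries were made with the 10x Genomics 3′ v2 chemistry, and the authors deposited unscaled UMI counts for each gene in each cell; per the labels Cell Ranger, STAR, the builds mm10 and GRCm38 and Seurat 2.3.0 were used. Gene by cell matrices of 27998 genes were read with Python 3.11.15, numpy 2.4.6, pandas 2.3.3 and scipy 1.17.1. Both files of the whole series, a list of background gene symbols and the authors' own comparison between tetraploid G2/M CMs of E16.5 and P5, were not used.

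UMIs of CMs were summed and scaled to CPM; CMs were thinned without replacement to 1000 UMIs (2000 as an alternative). No doublets were called, and the deepest 5% of CMs were left out as an alternative, beside all deposited cells, CMs without markers of other cell types, and scaling by the median of ratios. Intervals (95%) were Poisson for levels, Clopper-Pearson for shares and the binomial split of UMIs for ratios. They assume independent UMIs, and Nppa in particular varied more between CMs. With 1 library per group, single libraries were compared without a test, and only the 3 pairs of 2n and 4n libraries by age were tested, by an exact sign-flip permutation. The share of genes past 2-fold was counted among those with at least 100 UMIs. For medians and shares over all genes, counts below 3 UMIs were set to 3. The genes named were both members, the 8 genes of highest and 4 of lowest mean rho, members of gene lists, of which those with values in the text were chosen after the values were seen, and the neighbours on the chromosome. 1 gene of the trabecular and conduction list and 1 neighbour on the chromosome are not reported here. The members and lists were chosen with earlier results of these data known. Code for ratios, thinning and correlations was tested on simulated data.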

Additional observations from a re-analysis of the deposited data

Results flagged for a closer look

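Scaled to CPM, Nppb moved in opposite directions between E16.5 and P5 in the 2 ploidies. The log2 ratio, P5 over E16.5, was -0.20 (95% counting interval -0.24 to -0.15) in 2n CMs and 0.41 (0.36 to 0.47) in 4n CMs, with 1 library at each point. The difference between the ploidies was not tested. Over all genes the medians of this ratio were -0.45 in 2n and -0.51 in 4n CMs. At least 2-fold, 3.03% of genes were higher and 16.8% lower in 2n CMs, and 2.48% higher and 21% lower in 4n CMs. Without CMs with mitosis UMIs, among those of at least 1000 UMIs, the values were -0.36 in 2n and 0.077 in 4n CMs. Under scaling by the median of ratios they were 0.23 and 0.84, so that the direction was the same in both ploidies.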

How the results depend on the processing

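With 1 library per group and pooled sorts, no spread between animals or libraries is known, so each value describes these libraries; an alternative is called moved here where it left the counting interval, which is narrow. No analysis of replicate pairs within an age was possible because each group held 1 library. Taken across ages, the 3 pairs of 2n and 4n libraries gave p = 0.25 for Nppa and p = 0.50 for Nppb in exact sign-flip permutation tests. Several alternatives (the limits of the high classes, shared barcodes, atrial or endocardial markers, mitosis UMIs, a minimum depth and globin UMIs) were chosen after seeing the data. All deposited cells, scaling without globin UMIs, and leaving out CMs with shared barcodes or with atrial or endocardial markers moved none of the 9 log2 ratios of either gene. The causes of the changes that follow were not tested.

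Scaling by the median of ratios reversed Nppa for P1-2n over E16.5-2n to 0.22 and Nppb for P5-2n over E16.5-2n to 0.23. It gave Nppa -0.88 for P5-2n over P1-2n, -0.072 for P1-4n over E16.5-4n, -1.08 for P5-4n over P1-4n, and -0.15, -0.44 and -0.64 for 4n over 2n at E16.5, P1 and P5. For Nppb it gave -0.94 for P1-2n over E16.5-2n, 1.17 for P5-2n over P1-2n, -0.16 for P1-4n over E16.5-4n and 1.00 for P5-4n over P1-4n.

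The settings on mitosis, atrial and endocardial UMIs were judged at 1000 drawn UMIs and so also leave out CMs under 1000 UMIs. That minimum alone moved 3 ratios of Nppa, to -0.055 for P1-2n over E16.5-2n, -1.04 for P5-2n over P1-2n and -0.44 for P1-4n over P1-2n. Without CMs with mitosis UMIs, Nppa for E16.5-4n over E16.5-2n reversed to 0.057, and Nppa was at -0.25 for P1-2n over E16.5-2n, -0.93 for P5-2n over P1-2n, -0.67 for P1-4n over E16.5-4n, -0.95 for P5-4n over P1-4n, and -0.37 and -0.39 for 4n over 2n at P1 and P5. Nppb was then at -1.46, 1.10, -0.98 and 1.06 for these 4 steps of age, at -0.44 for 4n over 2n at E16.5 and at -0.0028 at P5. With each CM thinned to 1000 UMIs, Nppa was at -0.14 for P1-2n over E16.5-2n, -0.93 for P5-2n over P1-2n, -1.15 for P5-4n over P1-4n, and -0.34 and -0.56 for 4n over 2n at P1 and P5, and Nppb was at -1.40, 1.19, -0.62, 0.93 for the 4 steps of age and -0.18 for 4n over 2n at P5. Without the deepest 5% of CMs, Nppa was at -0.29, -0.79 and -1.16 for P1-2n over E16.5-2n, P5-2n over P1-2n and P5-4n over P1-4n, and at -0.18, -0.27 and -0.64 for 4n over 2n at the 3 ages, and Nppb was at -1.41 and 1.20 for the 2 steps of 2n CMs and 0.18 for P1-4n over P1-2n. Without CMs with markers of other cell types, Nppa was at -0.052 for P1-2n over E16.5-2n, -0.41 for P1-4n over E16.5-4n, -1.25 for P5-4n over P1-4n and -0.028 for E16.5-4n over E16.5-2n, and no Nppb ratio moved.

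Shares with at least 1 UMI rise with depth. At 2000 UMIs, by age from E16.5 to P5, they were 42.0%, 44.9% and 25.7% of 2n and 40.7%, 42.8% and 23.3% of 4n CMs for Nppa and 42.6%, 21.3% and 34.3% of 2n and 30.9%, 20.8% and 32.9% of 4n CMs for Nppb. Unthinned, in the same order, they were 43.0%, 43.8% and 34.0% and then 42.7%, 53.7% and 34.2% for Nppa, and 43.1%, 19.3% and 43.7% and then 33.7%, 28.8% and 47.0% for Nppb. The variance-to-mean ratio at 2000 UMIs was 46.2, 32.9 and 29.4 and then 45.1, 23.7 and 27.6 for Nppa, and 3.74, 3.65 and 3.80 and then 2.92, 3.69 and 3.31 for Nppb. The Spearman correlation of Nppa with Nppb moved at 2000 UMIs to 0.22 for P5-2n and, by age, to 0.21, 0.19 and 0.18 in the 4n libraries, and without thinning to 0.25 for E16.5-2n, 0.23 for P5-2n and 0.23, 0.23 and 0.21 in the 4n libraries. At limits of 3 and 10 in place of 5 of 1000 UMIs, Nppa-high CMs were 5.77% to 13.2% and 1.18% to 5.49% of a library, with P5-4n lowest under each. The ratio of this share between P1-4n and P5-4n, 2.22-fold at 5 UMIs, was 3.35-fold at 10. At limits of 1 and 3 in place of 2, Nppb-high CMs were 11.8% to 27.3% and 1.39% to 5.09%, and the 1.78-fold difference between E16.5-2n and E16.5-4n became 1.39-fold and 2.47-fold.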
